A study of Mus musculus with 8 samples.

Results

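To ask whether the SCA1-positive and SCA1-negative cells of the mouse mammary carcinoma line 4T1 differ in the genes of the CD44, CD24 and hyaluronan system, 9 genes were examined: Cd44, Cd24a, Has2, Has3, Hmmr, Hyal1, Hyal2, Cemip and Cemip2. They were chosen by symbol and matched through their Ensembl identifiers, and all 9 were among the 16341 genes counted and among the 11717 with enough reads to be tested. 4T1 cells were stained for SCA1, the surface protein encoded by Ly6a, and separated on magnetic columns into 4T1-Sca1+ and 4T1-Sca1- fractions, each sequenced as 4 bulk RNA libraries. The labels describe the sorted cells as CD45-Sca1+ and CD45-Sca1-, and give no treatment, time point or added allele for either fraction, and both fractions come from this 1 line. They name both parental 4T1 and a stained 4T1 tumor as the starting material, so whether cells of a host animal were present before sorting is not settled by the labels. The paper describes the profiled fractions as isolated from the parental line. It is not stated in the labels if each replicate came from its own sort, and p-values here measure the spread between libraries, which may be technical. In bulk RNA, fewer cells that express a gene and less RNA per cell cannot be told apart.

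Hyaluronan is a long sugar polymer of the space around cells. Hyaluronan synthases, of which HAS2 and HAS3 are members, spin it out through the plasma membrane from nucleotide sugars, CD44 and HMMR (also called RHAMM) bind it, and CEMIP, CEMIP2 (also called TMEM2) and the hyaluronidases HYAL1 and HYAL2 take part in cutting it into shorter chains. CD24 is a small, heavily glycosylated surface protein held by a lipid anchor. In the mammary gland and in breast tumors CD44 and CD24 are used together as surface markers to sort stem-like and more differentiated cells, and long and short hyaluronan chains are known to signal differently through CD44.

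Among the 9 genes, Cemip, Cemip2 and Has3 were higher in 4T1-Sca1+ than in 4T1-Sca1- libraries, Cd44 was lower, and Cd24a, Has2, Hmmr, Hyal1 and Hyal2 were not called (edgeR quasi-likelihood test, Benjamini-Hochberg adjusted over all genes tested, called at an adjusted p under 0.05). The 4 calls of 9 (44.4%) stand beside 61.5% of all tested genes called in either direction, with 31.3% higher and 30.2% lower, so a call by itself does not set these genes apart. The median log2 fold change was 0.04 over the 9 genes and 0.01 over all tested genes. A log2 fold change at or above that of Cemip was found for 74 genes, Cemip included, or 0.632% of those tested, and Cemip2 and Cd44 were among the 20.5% of genes that were called with a log2 fold change of 0.5 or more in either direction. Cemip alone also passed the same limit at 1, as did 6.1% of tested genes. The libraries of the fractions did not overlap for 4 of the 9 genes and for 54.7% of all tested genes.

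**Figure D1:**
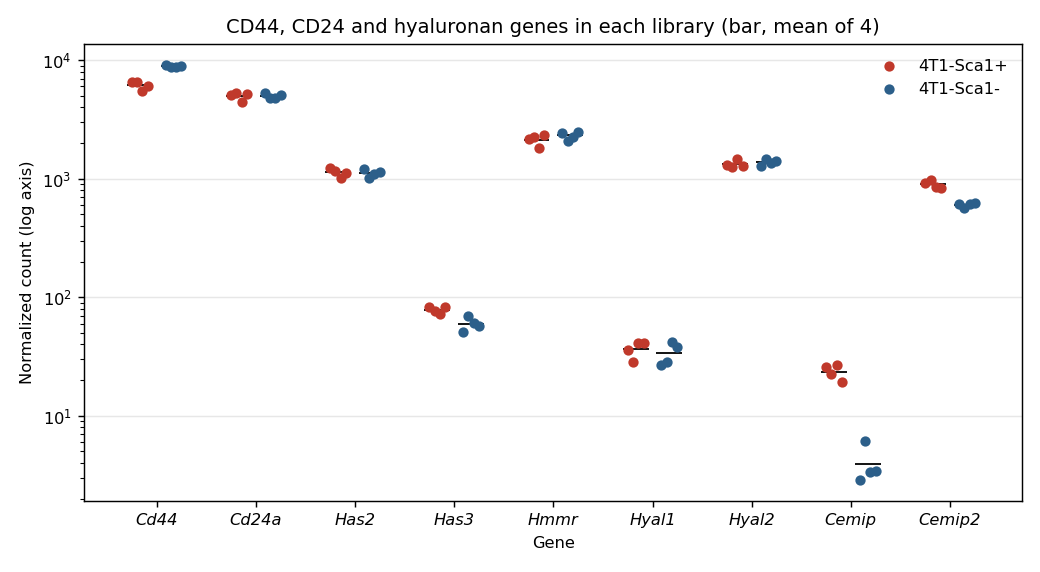
Normalized counts (counts divided by size factors, log axis) of the 9 genes in each of the 4 4T1-Sca1+ (red) and 4 4T1-Sca1- (blue) libraries, with bars at the group means. The fractions do not overlap for Cd44, Has3, Cemip and Cemip2, and they overlap for the other 5 genes.

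The libraries held 13561804 to 16968215 counted reads. Ly6a had 161, 193, 145 and 168 normalized counts in the 4T1-Sca1+ libraries and 1.91, 4.11, 0 and 1.14 in the 4T1-Sca1- libraries, so the RNA followed the sort labels (log2 fold change 6.42 ± 0.27 SE, edgeR adjusted p = 2.13e-12). 2 libraries stood apart by base composition: across 9549 genes, the deviation of a library from its group mean correlated with transcript GC content at 0.71 in 4T1-Sca1+ replicate 3 and 0.63 in 4T1-Sca1- replicate 2, against -0.502 to -0.0345 in the other 6. 4T1-Sca1+ replicate 3 was the lowest library of its group for 5 of the 9 genes. Without both libraries the counts were again 3 higher and 1 lower, and correcting each library for GC content kept those 4 calls and added Has2 as higher and Hyal2 as lower. The correction was fitted to deviations from the mean of all libraries, so it also removes any GC-related difference between the fractions, whatever its source.

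**Figure D2:**
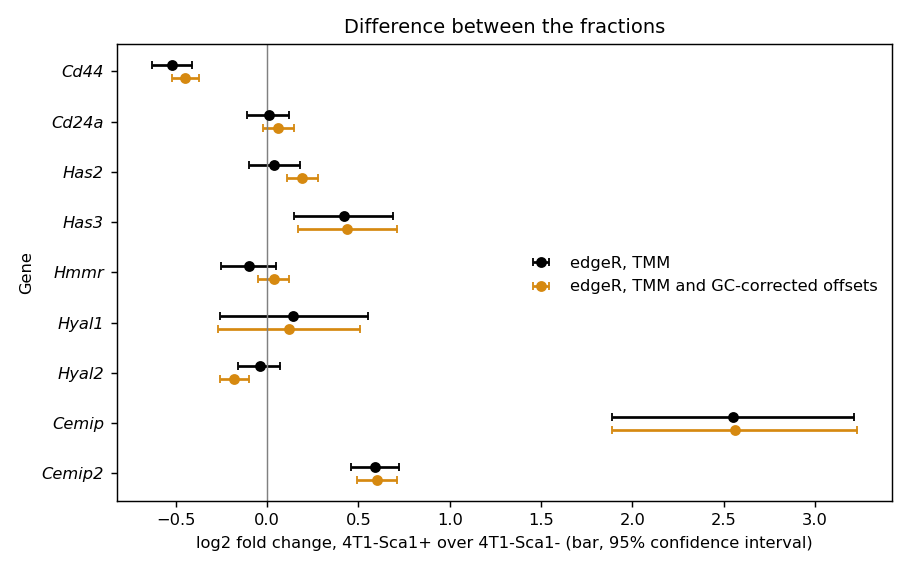
Log2 fold changes of the 9 genes, 4T1-Sca1+ over 4T1-Sca1-, with 95% confidence intervals, from the fit with TMM scaling (black) and with GC-corrected offsets added (orange). Cemip lies farthest to the right at 2.55 and Cd44 farthest to the left at -0.52, and the intervals of Has2 and Hyal2 leave 0 only with GC-corrected offsets.

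Cd44, the main hyaluronan receptor, lies on the minus strand at chr2:102811141-102901665 of GRCm38 and has 9 annotated transcripts. It had 6508, 6507, 5463 and 6077 normalized counts in the 4T1-Sca1+ libraries and 9154, 8842, 8733 and 8891 in the 4T1-Sca1- libraries. Every 4T1-Sca1+ library was below every 4T1-Sca1- library, and the group means were 6139 ± 494 and 8905 ± 179 (SD, n = 4). The log2 fold change was -0.52 ± 0.05 (SE), a level 0.696 times that of 4T1-Sca1- cells with a 95% interval of 0.644 to 0.751 (edgeR adjusted p = 1.65e-07). With GC-corrected offsets it was -0.45 ± 0.04. Counts were summed over each gene, so the standard and variant-exon forms of CD44 were not separated.

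Cd24a, on the plus strand at chr10:43578284-43584265, showed no such difference. Its normalized counts were 5098, 5282, 4412 and 5144 in 4T1-Sca1+ and 5264, 4816, 4824 and 5090 in 4T1-Sca1- libraries. The ranges overlapped and the means of 4984 ± 389 and 4999 ± 218 (SD, n = 4) nearly coincided. The 95% interval of the fold was 0.928 to 1.09 (log2 fold change 0.01 ± 0.06 SE, edgeR adjusted p = 0.901). With GC-corrected offsets the log2 fold change was 0.06 ± 0.04 SE, with a 95% interval of -0.02 to 0.15 (edgeR adjusted p = 0.2). A processed pseudogene, Gm6212, matches 218 bases of Cd24a at 96.789% identity and was not among the genes counted, so whether reads from it entered the Cd24a count was not tested.

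Because sorting schemes read the balance of the CD44 and CD24 proteins, the ratio of the counts was taken within each library, where library scaling cancels. It is a ratio of bulk RNA, and surface protein was not measured in these libraries. On the log2 scale the ratio of Cd44 to Cd24a was 0.35, 0.30, 0.31 and 0.24 in 4T1-Sca1+ and 0.80, 0.88, 0.86 and 0.80 in 4T1-Sca1- libraries. The groups did not overlap, and the geometric mean of the ratios was 1.23 in 4T1-Sca1+ and 1.78 in 4T1-Sca1- libraries. The difference of -0.53 had a two-sided exact permutation p of 0.0286, the smallest that 4 against 4 libraries allow, and 0.0571 after Benjamini-Hochberg adjustment over the 4 ratios examined. With one library left out the difference was -0.55 to -0.51 and the adjusted exact permutation p stayed at 0.0571 in 7 of 8 cases. It was 0.0381 without 4T1-Sca1- replicate 2, where the difference was -0.52 and the adjusted p fell because the Has2 to Has3 ratio also reached the smallest p. Per kilobase of exon, Cd44 made up 31.9% ± 0.691 of the sum of both transcripts in 4T1-Sca1+ and 40.4% ± 0.642 in 4T1-Sca1- libraries (SD, n = 4).

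**Figure D3:**
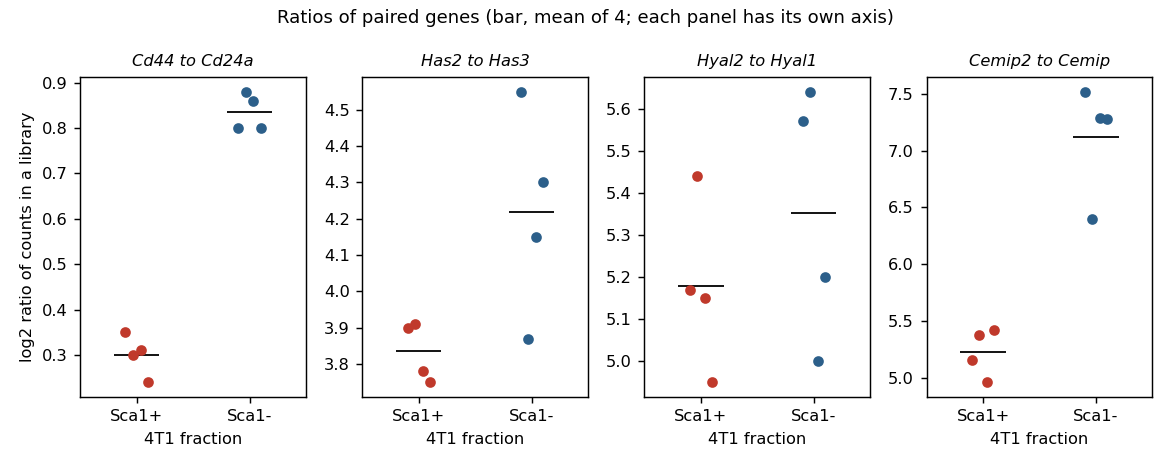
Log2 ratios of the counts of paired genes within each library, 4T1-Sca1+ in red and 4T1-Sca1- in blue, with bars at the means of 4 and a separate vertical axis in each panel. The Cd44 to Cd24a and Cemip2 to Cemip ratios are lower in all 4 4T1-Sca1+ libraries, while the other pairs of groups overlap.

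Over the 8 libraries, the log2 expression of Cd44 was most like that of Ddx21 (Pearson r = 0.9986), Snrpa1 (r = 0.9981) and Synrg (r = 0.9977) among 9631 genes with a mean count of at least 100. These correlations carry the difference between the fractions, since the 3 genes had log2 fold changes of -0.72, -0.39 and -0.29. Cd24a was most like Ddr2 (r = 0.98), Zbtb41 (r = 0.9753) and Sbno1 (r = 0.9705), whose log2 fold changes were 0.01, 0.02 and 0.01. All of these are descriptions over libraries that also share depth and base composition.

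The RefSeq promoter windows, which run from 250 bases before to 50 bases after a transcript start, covered 5 of the 9 genes. Those of Cd44, Hmmr and Cemip are printed 5′ to 3′ on the gene's strand from GRCm38.p6, because Cd44 and Cemip carried the largest differences in each direction and Hmmr is the gene of the set tied to the cell cycle. Capitals mark GGGCGG for Cd44 (chr2:102901616-102901915), CCAAT and TTTGAA for Hmmr (chr11:40733388-40733687), and TATAAA for Cemip (chr7:84086456-84086755), with each motif searched on both strands.
Cd44: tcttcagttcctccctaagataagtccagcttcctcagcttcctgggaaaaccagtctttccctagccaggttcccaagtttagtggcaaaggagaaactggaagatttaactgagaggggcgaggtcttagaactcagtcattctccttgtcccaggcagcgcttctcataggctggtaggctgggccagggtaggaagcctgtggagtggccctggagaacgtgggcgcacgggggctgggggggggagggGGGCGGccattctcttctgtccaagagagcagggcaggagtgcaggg
Hmmr: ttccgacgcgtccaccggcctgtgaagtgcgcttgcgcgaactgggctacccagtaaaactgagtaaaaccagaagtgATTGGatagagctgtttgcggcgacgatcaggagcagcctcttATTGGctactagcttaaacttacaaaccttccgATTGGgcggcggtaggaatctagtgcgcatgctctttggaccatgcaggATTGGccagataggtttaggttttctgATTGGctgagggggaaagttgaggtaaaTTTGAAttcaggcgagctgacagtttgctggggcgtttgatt
Cemip: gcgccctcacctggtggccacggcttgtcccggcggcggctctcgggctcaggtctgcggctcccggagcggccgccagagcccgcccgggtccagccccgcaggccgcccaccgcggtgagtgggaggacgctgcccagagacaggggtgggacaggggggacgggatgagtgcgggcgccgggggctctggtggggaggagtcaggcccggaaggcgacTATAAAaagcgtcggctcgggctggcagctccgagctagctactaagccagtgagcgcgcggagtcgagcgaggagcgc

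GGGCGG, the core of a GC box, occurred once in the Cd44 window, once in that of Hmmr and 2 times in that of Cemip, and in 35.7% of 32851 promoter windows of the same length. The Cemip window also held 1 TATAAA, a core element of some promoters that was found in 13.6% of windows. The Hmmr window held 5 CCAAT and 1 TTTGAA, and the combination of at least 2 CCAAT with a TTTGAA was present in 2.09% of all windows. TGANTCA, a form of the AP-1 motif, was in none of the 5 windows and in 7.81% of all windows. These are matches of letters and not evidence of binding.

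The synthase genes Has2 and Has3 differed in level. Has2 (minus strand, chr15:56665627-56694539) had 1235, 1167, 1006 and 1111 normalized counts in 4T1-Sca1+ and 1197, 1014, 1094 and 1133 in 4T1-Sca1- libraries. The groups overlapped, with means of 1130 ± 96.6 and 1110 ± 76.2 (SD, n = 4) and a log2 fold change of 0.04 ± 0.07 SE (edgeR adjusted p = 0.624). Has2 has the lowest GC content of the 9 genes, 40.59%, and with GC-corrected offsets it was called higher in 4T1-Sca1+ cells (log2 fold change 0.19 ± 0.04 SE, edgeR adjusted p = 0.000295). Without both libraries that stood apart by GC content it was not called (log2 fold change 0.04 ± 0.05 SE, edgeR adjusted p = 0.51). Its exons share 182 bases with the antisense gene Has2os, which had 27.6 ± 4.42 normalized counts in 4T1-Sca1+ and 30.6 ± 6.71 in 4T1-Sca1- libraries (SD, n = 4).

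Has3 (plus strand, chr8:106870242-106884566) was a minor transcript that rose. It had 82.3, 76.9, 72.8 and 82.3 normalized counts in 4T1-Sca1+ and 50.6, 68.8, 61.2 and 57.1 in 4T1-Sca1- libraries. The lowest 4T1-Sca1+ library was above the highest 4T1-Sca1- library, and the means were 78.6 ± 4.59 and 59.4 ± 7.62 (SD, n = 4). The fold was 1.34 with a 95% interval of 1.11 to 1.62 (log2 fold change 0.42 ± 0.13 SE, edgeR adjusted p = 0.0091). Has3 shares 352 exon bases on the opposite strand with Chtf8, a gene with 4049 ± 109 and 4722 ± 247 normalized counts (SD, n = 4) that was lower in 4T1-Sca1+ cells (log2 fold change -0.21 ± 0.05 SE, edgeR adjusted p = 0.000694). The library kit does not mark strand, so reads from the shared bases cannot be told apart.

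Per kilobase, Has3 was 4.43% ± 0.247 of the sum of Has2 and Has3 in 4T1-Sca1+ and 3.47% ± 0.662 in 4T1-Sca1- libraries (SD, n = 4). The log2 ratio of Has2 to Has3 ran from 3.75 to 3.91 in 4T1-Sca1+ and from 3.87 to 4.55 in 4T1-Sca1- libraries, so the ranges met. The difference of -0.38 had a two-sided exact permutation p of 0.0857 and an adjusted p of 0.114. It was -0.50 without 4T1-Sca1- replicate 2 (exact permutation, adjusted p = 0.0381), and did not pass without any other library. That library had the most Has3 of its group and also stood apart by GC content. Has2 and Has3 differ in GC content (40.59% and 50.12%), which a ratio does not cancel, and the ratio was not corrected for it. Has1, the remaining synthase gene, was not among the genes counted.

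Of the wider list of 14 genes for hyaluronan synthesis and its sugar precursors, 12 were tested, 5 were higher, 1 was lower and the median log2 fold change was 0.02. Besides Has3, the genes that rose were Ugp2, Hk2, Uap1l1 and Ugdh, the last 2 of which are named here because the count is small. Ugp2, which makes UDP-glucose, had 576 ± 56.2 and 416 ± 35.7 normalized counts in 4T1-Sca1+ and 4T1-Sca1- libraries (SD, n = 4) and a log2 fold change of 0.48 ± 0.08 SE (edgeR adjusted p = 3.96e-05). Ugdh, which turns UDP-glucose into the UDP-glucuronic acid that the synthases use, had a log2 fold change of 0.22 ± 0.05 SE (edgeR adjusted p = 0.00047). The hexokinases that start this supply moved in opposite directions: Hk2 rose by 0.39 ± 0.04 and Hk1 fell by 0.21 ± 0.05 on the log2 scale (SE, edgeR adjusted p = 4.75e-07 and 0.000623). Thus 6 of the 12 tested genes of the list (50%) were called, beside 61.5% of all tested genes.

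Hmmr (minus strand, chr11:40701395-40733422) encodes a hyaluronan-binding protein that inside the cell sits on the mitotic spindle. It had 2184, 2255, 1811 and 2319 normalized counts in 4T1-Sca1+ and 2436, 2097, 2265 and 2468 in 4T1-Sca1- libraries. The groups overlapped, and the lowest library of each group was the one that stood apart by GC content. The means were 2142 ± 228 and 2316 ± 171 (SD, n = 4), with a log2 fold change of -0.10 ± 0.07 SE (edgeR adjusted p = 0.23), which became 0.04 ± 0.04 with GC-corrected offsets (edgeR adjusted p = 0.456). The direction of the Hmmr difference is therefore not settled by these libraries, and the 95% interval on the log2 scale ran from -0.25 to 0.05.

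Hmmr was set beside 35 mitosis genes, itself included, which divided between higher and lower. Of these, 14 were higher, 5 were lower and 16 were not called, with a median log2 fold change of 0.03. The share called was 54.3%, beside 61.5% of all tested genes, of which 31.3% were higher and 30.2% lower. With GC-corrected offsets 21 of the mitosis genes were higher and 6 lower, beside 3965 and 3704 of the 11717 genes tested. The highest were Ube2c, a ubiquitin-conjugating enzyme of mitotic exit, at 0.42 ± 0.05, the centromeric histone gene Cenpa at 0.41 ± 0.04 and the kinase gene Aurkb at 0.29 ± 0.04 (log2 fold change ± SE, edgeR adjusted p = 1.29e-06, 4.81e-07 and 1.67e-05). The 5 that fell were Cks2, Kif20b, Cdca8, Kif20a and Prc1, with Cks2, a small partner of cyclin-dependent kinases, at -0.54 ± 0.07 (edgeR adjusted p = 7.54e-06). In the promoter windows of this list, 31 windows of 30 genes, at least 2 CCAAT with a TTTGAA stood in 45.2%, Hmmr among them, beside the 2.09% of all windows.

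**Figure D4:**
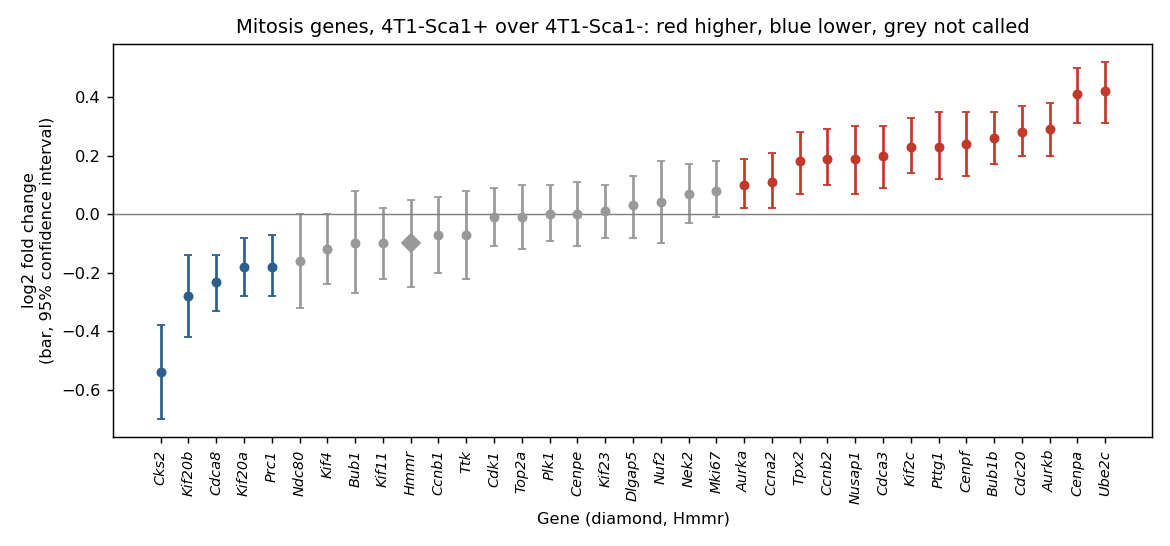
Log2 fold changes of the 35 mitosis genes, 4T1-Sca1+ over 4T1-Sca1-, with 95% confidence intervals, ordered by size and with Hmmr as a diamond (red, higher; blue, lower; grey, not called). The genes run from Cks2 at -0.54 to Ube2c at 0.42, and Hmmr at -0.10 is among the 16 not called.

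Among 25 hyaluronan receptors and binding proteins, Cd44 and Hmmr included, only 7 were tested. Of the other 18, 16 had at most 10 counts in every library or were not among the genes counted, and Hapln3 and Vcan reached 11. The lymphatic and scavenger receptor genes Lyve1 and Stab2 and the receptor gene Layn had at most 3 counts in any library. Of the 7, 3 were higher (Ptx3, Hapln4 and Tlr4), 3 were lower (Cd44, Tlr2 and Stab1), and Hmmr was not called. This is 85.7% called, beside 61.5% of all tested genes, of which 31.3% were higher and 30.2% lower. Ptx3, a secreted pentraxin that helps crosslink hyaluronan, had 19.5 ± 2.48 and 5.07 ± 3.48 normalized counts in 4T1-Sca1+ and 4T1-Sca1- libraries (SD, n = 4), a log2 fold change of 1.95 ± 0.35 SE (edgeR adjusted p = 0.000107). Hapln4, a link protein gene, had 25.5 ± 5.2 and 9.5 ± 1.45 normalized counts (log2 fold change 1.42 ± 0.25 SE, edgeR adjusted p = 0.000109). Both are low counts, at most 32 in any library.

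The Toll-like receptor genes Tlr4 and Tlr2, whose products respond to hyaluronan fragments, went opposite ways. Tlr4 was higher at 268 ± 21.9 against 183 ± 20.3 normalized counts (log2 fold change 0.57 ± 0.09 SE, edgeR adjusted p = 4.26e-05). Tlr2 was lower at 140 ± 5.13 against 204 ± 4.25 (SD, n = 4, log2 fold change -0.54 ± 0.08 SE, edgeR adjusted p = 1.87e-05). Stab1, which encodes the scavenger receptor stabilin-1, was lower at 1036 ± 17.2 against 1335 ± 83.6 normalized counts (log2 fold change -0.35 ± 0.05 SE, edgeR adjusted p = 1.32e-05).

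On the breakdown side, the hyaluronidase genes Hyal1 and Hyal2 did not pass the test while Cemip and Cemip2 rose. Hyal2, which encodes a hyaluronidase anchored at the cell surface (plus strand, chr9:107567945-107572779), had 1298, 1259, 1466 and 1287 normalized counts in 4T1-Sca1+ and 1292, 1458, 1370 and 1401 in 4T1-Sca1- libraries. The groups overlapped, the highest library of each being the one that stood apart by GC content, and the means were 1327 ± 93.9 and 1380 ± 69.1 (SD, n = 4). The log2 fold change was -0.04 ± 0.06 SE (edgeR adjusted p = 0.513). Hyal2 has the highest GC content of the 9 genes, 56.99%, and with GC-corrected offsets it was called lower in 4T1-Sca1+ cells, at -0.18 ± 0.04 SE (edgeR adjusted p = 0.000206).

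Hyal1, which encodes the lysosomal hyaluronidase (plus strand, chr9:107576927-107581710), had 35.6, 28.6, 40.9 and 41.1 normalized counts in 4T1-Sca1+ and 26.7, 28.7, 42.3 and 37.7 in 4T1-Sca1- libraries. The spread within a fraction was wider than the difference between the means of 36.6 ± 5.89 and 33.9 ± 7.36 (SD, n = 4). The log2 fold change was 0.14 ± 0.19 SE (edgeR adjusted p = 0.544), and its 95% interval of -0.26 to 0.55 holds changes of the size seen for Has3. Of its 3777 exon bases, 1920 are shared on the same strand with Naa80 and 159 with Hyal3, so the split of reads among these genes is uncertain. Naa80 had 219 ± 16.2 and 207 ± 19.4 normalized counts and Hyal3, the third gene of the cluster, 17.9 ± 7.08 and 15.2 ± 2.62 (SD, n = 4), and neither was called (edgeR adjusted p = 0.385 and 0.523).

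The log2 ratio of Hyal2 to Hyal1 was 5.18 ± 0.199 in 4T1-Sca1+ and 5.35 ± 0.305 in 4T1-Sca1- libraries (SD, n = 4). The difference of -0.17 had a two-sided exact permutation p of 0.314, and ran from -0.29 without 4T1-Sca1- replicate 3 to -0.08 without 4T1-Sca1- replicate 2. Hyal1 made up 2.34% ± 0.315 and 2.09% ± 0.441 of the pair per kilobase.

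Cemip, which encodes a secreted hyaluronan-binding protein needed for hyaluronan breakdown in fibroblasts, carried the largest fold change of the 9 genes at the lowest level. On the minus strand at chr7:83932857-84086502, it had 25.6, 22.7, 26.9 and 19.3 normalized counts in 4T1-Sca1+ and 2.87, 6.16, 3.34 and 3.42 in 4T1-Sca1- libraries. The groups were well separated, with means of 23.6 ± 3.41 and 3.95 ± 1.5 (SD, n = 4), and these rest on 100 and 15 reads in all. The fold was 5.85 with a 95% interval of 3.72 to 9.22 (log2 fold change 2.55 ± 0.31 SE, edgeR adjusted p = 1.72e-06). Leaving out one library at a time gave log2 fold changes of 2.40 to 2.84.

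Cemip2, a membrane-bound relative described as a cell-surface hyaluronidase (plus strand, chr19:21778342-21858360), was far more abundant and rose less. Its normalized counts were 929, 967, 853 and 843 in 4T1-Sca1+ and 614, 562, 608 and 622 in 4T1-Sca1- libraries. Again no library of one fraction reached the range of the other, and the means were 898 ± 60.1 and 601 ± 27.2 (SD, n = 4). The fold was 1.51 with a 95% interval of 1.38 to 1.65 (log2 fold change 0.59 ± 0.06 SE, edgeR adjusted p = 2.07e-07). An antisense gene, AC148016.1, shares 97 exon bases with it and was not among the genes counted.

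The log2 ratio of Cemip2 to Cemip was 5.16, 5.38, 4.96 and 5.42 in 4T1-Sca1+ and 7.52, 6.40, 7.29 and 7.28 in 4T1-Sca1- libraries. The groups did not overlap, and the geometric mean of the ratios was 37.5 in 4T1-Sca1+ and 139 in 4T1-Sca1- libraries. The difference of -1.89 had a two-sided exact permutation p of 0.0286, the smallest the design allows, and an adjusted p of 0.0571, which with one library left out was again 0.0571 except without 4T1-Sca1- replicate 2 (0.0381, difference -2.13). Even so, Cemip was only 1.8% ± 0.273 of the pair per kilobase in 4T1-Sca1+ and 0.461% ± 0.2 in 4T1-Sca1- libraries (SD, n = 4).

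Across the list of 12 breakdown genes, 8 were tested, of which 3 were higher and 5 were not called. The median log2 fold change was 0.15, and 37.5% were called, beside 61.5% of all tested genes. Beside Cemip and Cemip2 the third was Gusb, which encodes the lysosomal β-glucuronidase, with 2884 ± 201 and 2594 ± 82 normalized counts (SD, n = 4) and a log2 fold change of 0.17 ± 0.05 SE (edgeR adjusted p = 0.0103).

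**Figure D5:**
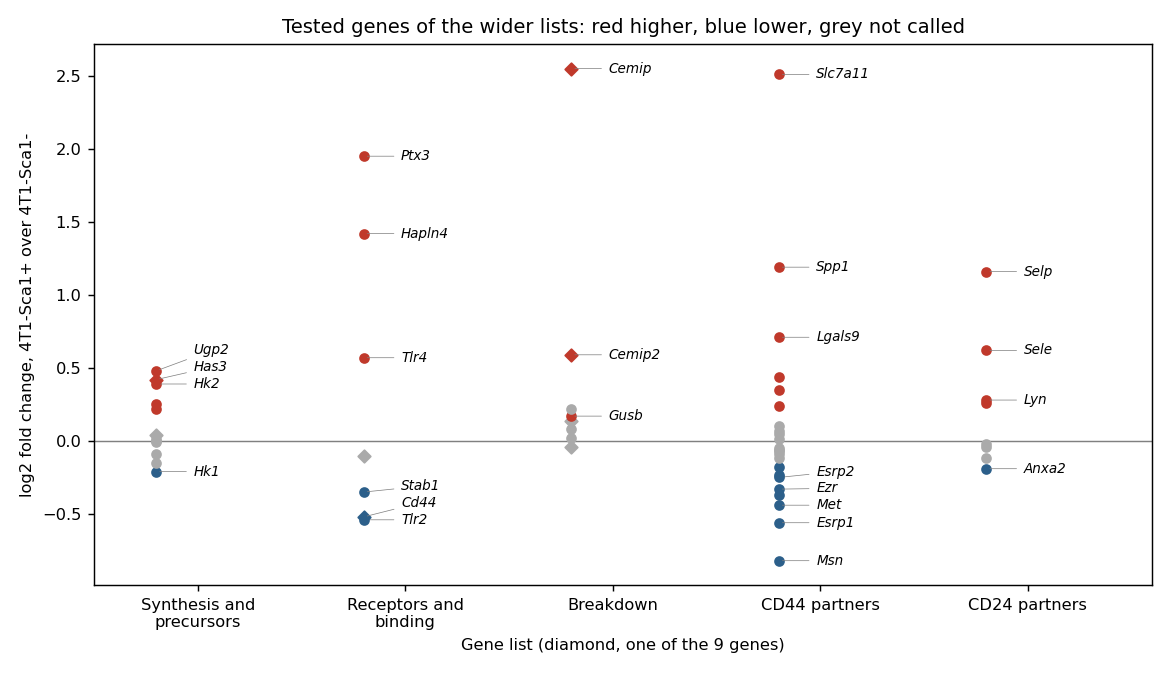
Log2 fold changes, 4T1-Sca1+ over 4T1-Sca1-, of the tested genes in 5 lists of the hyaluronan, CD44 and CD24 systems (red, higher; blue, lower; grey, not called; diamonds, the 9 genes). Cemip at 2.55 and Slc7a11 at 2.51 lie highest and Msn at -0.82 lies lowest.

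Per kilobase of exon, Cd24a was the most abundant of the 9 genes, with 1932 ± 151 normalized counts per kilobase in 4T1-Sca1+ and 1937 ± 84.4 in 4T1-Sca1- libraries, followed by Cd44 with 906 ± 72.9 and 1314 ± 26.4 (SD, n = 4). Hyal2 (403 ± 28.5 and 419 ± 21) and Hmmr (394 ± 41.9 and 427 ± 31.6) came next and overlapped in both fractions, in opposite order. Has2 followed with 267 ± 22.8 and 262 ± 18, and Cemip2 with 105 ± 7.06 and 70.6 ± 3.19. Has3 (12.3 ± 0.719 and 9.31 ± 1.19) and Hyal1 (9.68 ± 1.56 and 8.97 ± 1.95) were separate in 4T1-Sca1+ libraries and overlapped in 4T1-Sca1- libraries. Cemip was lowest with 1.93 ± 0.278 and 0.323 ± 0.122. The order was thus the same in both fractions apart from Hyal2 and Hmmr.

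Around CD44, the linker genes Msn and Ezr, the splicing factor genes Esrp1 and Esrp2 and the receptor gene Met were lower, while Slc7a11, Spp1 and Lgals9 were higher. The tail-binding partners did not move together, since Ank3 (ankyrin-G) at 0.44 ± 0.06 and Nf2 (merlin) at 0.35 ± 0.04 were higher (log2 fold change ± SE, edgeR adjusted p = 1.02e-05 and 9.29e-07). Of 24 genes for CD44 partners, splicing and shedding, 23 were tested, of which 6 were higher and 8 lower. The median log2 fold change was -0.06, and 60.9% were called, beside 61.5% of all tested genes. Of the ezrin, radixin and moesin genes, which tie the CD44 tail to actin, Msn had 19069 ± 446 and 33969 ± 469 normalized counts in 4T1-Sca1+ and 4T1-Sca1- libraries (SD, n = 4) and a log2 fold change of -0.82 ± 0.04 SE (edgeR adjusted p = 7.63e-12). Ezr fell by 0.33 ± 0.04 on the log2 scale (SE, edgeR adjusted p = 1.56e-06). Rdx, at -0.05 ± 0.05 SE, was not called (edgeR adjusted p = 0.404), and with GC-corrected offsets it was 0.08 and called higher (edgeR adjusted p = 0.039), a call that was lost when the replicate block was added (edgeR adjusted p = 0.0581).

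Esrp1 and Esrp2, epithelial splicing regulators that keep the variant exons of CD44, were both lower. Esrp1 had 1355 ± 73.3 and 2019 ± 48.8 normalized counts (SD, n = 4, log2 fold change -0.56 ± 0.05 SE, edgeR adjusted p = 2.78e-08). Esrp2 had 454 ± 27.1 and 546 ± 43.2 (log2 fold change -0.25 ± 0.07 SE, edgeR adjusted p = 0.00381). Met, the receptor for which CD44 variants act as a coreceptor, was lower as well (log2 fold change -0.44 ± 0.05 SE, edgeR adjusted p = 2.08e-06).

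In the other direction, Slc7a11, the cystine transporter gene whose product is held at the membrane by CD44 variants, had 1755 ± 111 and 311 ± 3.73 normalized counts (SD, n = 4), a fold of 5.70 (log2 fold change 2.51 ± 0.06 SE, edgeR adjusted p = 1.87e-15). Spp1, which encodes the CD44 ligand osteopontin, had 31100 ± 2350 and 13778 ± 468 (SD, n = 4, log2 fold change 1.19 ± 0.05 SE, edgeR adjusted p = 2.8e-12). Lgals9, which encodes galectin-9, a further CD44 ligand, had 359 ± 25.1 and 221 ± 10.5 (log2 fold change 0.71 ± 0.07 SE, edgeR adjusted p = 2.92e-07). These ligand and transporter transcripts were thus higher in the fraction with the lower Cd44 level.

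Of 9 genes for CD24 partners and ligands, 8 were tested, 4 were higher and 1 was lower. The median log2 fold change was 0.12, and 62.5% were called, beside 61.5% of all tested genes. Selp, which encodes P-selectin, a CD24-binding adhesion receptor known from platelets and endothelium, had 494 ± 38.4 and 223 ± 28.2 normalized counts (SD, n = 4, log2 fold change 1.16 ± 0.09 SE, edgeR adjusted p = 3.73e-09). Sele, for E-selectin, had 48 ± 5.73 and 31.3 ± 2.03 (log2 fold change 0.62 ± 0.16 SE, edgeR adjusted p = 0.00276). The Src-family kinase genes Lyn and Src rose by 0.28 ± 0.06 and 0.26 ± 0.05 on the log2 scale (SE, edgeR adjusted p = 0.00042 and 0.000256), Src being named here because the count is small. Anxa2 was lower at -0.19 ± 0.04 (edgeR adjusted p = 0.000709). Of the endothelial markers, 6 of 8 had at most 10 counts in every library or were not among the genes counted. The summed level of the list was 35 to 44 normalized counts in 4T1-Sca1+ and 43 to 66 in 4T1-Sca1- libraries. Most of it was Tie1, at 25.3 ± 4.2 and 39 ± 6.99 (SD, n = 4), which was called lower (edgeR adjusted p = 0.0121). Pecam1, with too few reads to be tested, was higher without overlap (5.01 ± 1.7 and 1.04 ± 0.842), while Cdh5, Tek, Emcn, Vwf and Esam overlapped. The part of endothelial cells in the Selp difference was not tested.

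Cd44 and Cd24a also belong to a list of 13 mammary stem cell surface markers, of which 9 were tested. The median log2 fold change was -0.03, and 77.8% were called, beside 61.5% of all tested genes. Of the 9, 4 were lower and 3 were higher. The 3 were Ly6a itself, the gene the sort read, the β3 integrin gene Itgb3 (CD61) at 0.93 ± 0.06 and the α6 integrin gene Itga6 (CD49f) at 0.22 ± 0.05 (log2 fold change ± SE, edgeR adjusted p = 1.05e-09 and 0.000603). With Cd44, the genes that fell were Cd14 at -0.29 ± 0.05, Itgb1 at -0.28 ± 0.05 and Procr at -0.27 ± 0.05 (edgeR adjusted p = 0.000173, 0.000162 and 0.0002), Procr being named here because the count is small. The called genes of this list thus differed in direction between the fractions.

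Epithelial transcripts were abundant in both fractions, with a summed level of 54183 to 59105 normalized counts in 4T1-Sca1+ and 53743 to 57955 in 4T1-Sca1- libraries over 8 markers. Of the 7 tested, 2 were higher (Krt8 at 0.31 and Krt18 at 0.38) and 3 lower (Cdh1 at -0.69, Krt14 at -0.23 and Krt7 at -0.20, log2 fold changes), while Epcam and Krt19 were not called. The share called was 71.4%, beside 61.5% of all tested genes. Of 14 leukocyte markers, 11 had at most 10 counts in every library or were not among the genes counted, Ptprc (CD45) had at most 4, and the summed level was 199 to 228 in 4T1-Sca1+ and 83 to 120 in 4T1-Sca1- libraries. Of 10 fibroblast markers, 5 were at most at 10 counts or not among the genes counted, and the summed level was 635 to 671 against 395 to 468. Few genes carried these sums. Pdgfra alone had 560 ± 26.1 and 364 ± 25.6 normalized counts (SD, n = 4). Col1a1 was also called higher, at 47.6 ± 10.6 and 28.6 ± 3.93 (edgeR adjusted p = 0.00252), while Postn, at 24.7 ± 7.87 and 24.2 ± 3.85, was not called. Of the fibroblast markers with too few reads to be tested, Dcn (11.4 ± 3.7 and 1.06 ± 0.0848) and Pdgfrb were higher without overlap, while Col1a2 and Fap overlapped. The leukocyte sum was mostly Cd74 (125 ± 6.42 and 65.5 ± 15.1), Csf1r and S100a8. These were the 3 leukocyte markers tested, and all were called higher (log2 fold changes 0.94, 1.18 and 2.38), as were 31.3% of all tested genes. Both sums were higher in the fraction with more Cemip, Cemip2 and Has3, and their part in those differences was not tested.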

How the data were processed

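Bulk RNA of 4T1-Sca1+ and 4T1-Sca1- cells was measured in 4 libraries each, made with the TruSeq RNA v2 kit, which does not mark strand, and sequenced on a NextSeq 500. Per the labels, the submitters' processing notes name cutadapt 1.16, STAR 2.5.3a and the build GRCm38. The counting tool, annotation and use of strand are not given in the sources used here. The authors deposited raw counts for 16341 genes, which were used for all tests. They also deposited a normalized signal table for 15372 genes. It equals the deposited counts divided by DESeq2 size factors to a relative difference of at most 5e-15, and served only for an alternative.

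Normalized counts in the text are counts divided by DESeq2 size factors, and per-kilobase levels divide them by the merged exon length. Genes were filtered with filterByExpr (11717 tested, 4624 not tested), scaled by TMM and tested with edgeR 4.0.16 (quasi-likelihood, two-sided, no covariates) in R 4.3.3, with Benjamini-Hochberg adjustment over all tested genes. The common biological coefficient of variation was 0.0541. Ratios of pairs used counts plus 0.5 and an exact permutation over libraries. Likeness used edgeR's log2 CPM with a prior count of 2. Annotation was GENCODE for GRCm38, in which 16202 genes matched by identifier and 139 did not, and promoter sequences were those of RefSeq on GRCm38.p6.

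Alternatives were other scalings, filters, a stricter threshold, DESeq2 1.42.0, limma 3.58.1 (voom, and on log2 of the deposited normalized signal plus 1), a replicate block, GC-corrected offsets (loess, span 0.3), and leaving out each library. Leaving out both libraries that stood apart by GC content was added after the data were seen. The edgeR fit was tested on simulated data with 200 changed genes. The 9 genes, the wider lists and the tests were chosen with earlier results of these data known. Genes named are the 9, Ly6a, up to 3 called genes with the highest and 3 with the lowest fold changes of each wider list, genes acting directly on a member, and the 3 genes most like Cd44 and Cd24a. Others, chosen after their values were seen, are named where a count was 5 or fewer, a member is overlapped or the sum of a list rests on them.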

Additional observations from a re-analysis of the deposited data

Results flagged for a closer look

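In 94 groups of 4 libraries tested for a single library far from the other 3 (Dixon's criterion at its 95% critical value), 6 values stood out, where chance gives about 4.7. Cemip had 6.16 normalized counts in 4T1-Sca1- replicate 2, against 2.87 to 3.42 in the others of its group. Hk2 had 3061 in 4T1-Sca1- replicate 3, against 3196 to 3211. Kif20b had 1132 in 4T1-Sca1+ replicate 3, against 1350 to 1383, and 1424 in 4T1-Sca1- replicate 2, against 1655 to 1678. Ezr had 6829 in 4T1-Sca1+ replicate 2, against 7205 to 7220, and 9402 in 4T1-Sca1- replicate 2, against 8908 to 8973. Of the 6 values, 3 were in 4T1-Sca1- replicate 2 and 1 in 4T1-Sca1+ replicate 3, the libraries that stood apart by GC content.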

How the results depend on the processing

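Cd44, Cemip, Cemip2 and Has3 kept their direction and their call in every alternative in which they were tested. Cemip was not tested when at least 10 counts were required in every library. With GC-corrected offsets, without or with the replicate block, 2 of the 9 genes were lower, Hyal2 joining Cd44, and 4 were higher, Has2 joining the rest. The fold changes of genes near 0 changed sign: Cd24a was -0.0042 with DESeq2 size factors and with DESeq2, -0.0044 without a low-count filter, -0.01 with limma on the deposited normalized table, and -0.02 to 0.06 with one library left out. With one library left out Has2 ran from -0.01 to 0.09 and Hyal3 from -0.04 to 0.42, and Hyal3 was -0.04 without both libraries that stood apart by GC content. Hmmr was 0.04 with GC-corrected offsets and 0.03 with the block added, and Rdx was 0.08 in both, called only without the block. In the list of synthesis genes 2 were lower without a low-count filter, and in the breakdown list 1 was lower with GC-corrected offsets. With one library left out, the difference in log2 ratio ran from -0.55 to -0.51 for Cd44 to Cd24a, from -0.50 to -0.27 for Has2 to Has3, from -0.29 to -0.08 for Hyal2 to Hyal1 and from -2.13 to -1.76 for Cemip2 to Cemip, which was -1.05 with 5 added to the counts. Without 4T1-Sca1- replicate 2 the ratios of Cd44 to Cd24a, Has2 to Has3 and Cemip2 to Cemip passed the threshold (exact permutation, adjusted p = 0.0381). That of Hyal2 to Hyal1 did not (exact permutation, adjusted p = 0.6). Over all genes, 3019 to 4118 were higher and 2829 to 3727 lower across alternatives. Deviations of same-numbered libraries correlated at 0.217, -0.377, -0.115 and -0.00532, and 1 of 4 numbers matched itself best. The libraries that stood apart by GC content carry different numbers, so this check cannot decide whether the numbers pair the libraries. With the number as a replicate block, 3605 genes were higher and 3452 lower, 3 and 1 of the 9 among them, and the ratio differences of -0.53, -0.38, -0.17 and -1.89 could not fall below an exact sign-flip p of 0.125.

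Depth limits Cemip, with 15 reads in all 4T1-Sca1- libraries, and Hyal1, with at most 47 in any library. Has1 and the CD44 isoforms were not analysed here. Intervals cover the spread between these libraries only.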
